A study of Rattus norvegicus with 4 samples.

Results

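Matrix metalloproteinases and their tissue inhibitors were examined in liver RNA of rats given α-naphthylisothiocyanate (ANIT), a compound toxic to bile duct cells that serves as a rodent model of cholestasis. The members were all array features with a single gene symbol that starts with Mmp or Timp and a digit. These were 7 of 1936 features and stood for 6 genes, namely membrane-bound Mmp14, the secreted enzymes Mmp2, Mmp12 (2 features, called a and b here) and Mmp13, and the inhibitors Timp1 and Timp2. Their NCBI gene IDs in the platform annotation were 81707, 81686, 117033, 171052, 116510 and 29543, in that order, and all 7 features matched RefSeq by ID and symbol.

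The animals were male Sprague-Dawley rats, killed 24 h after 1 intraperitoneal injection of ANIT at 75 mg/kg in olive oil, or of olive oil alone at equal volume. In each condition the liver RNA of 3 rats was combined, so each condition was 1 pool, and the spread between animals is unknown. Each of 4 spotted cDNA arrays compared both pools directly. ANIT was labelled with Cy5 on arrays 1 and 3, called the forward arrays here, and with Cy3 on arrays 2 and 4, called the swapped arrays. The arrays were taken as technical repeats, and every SD below is over these 4 hybridisations. With 1 pool per condition the treatment effect could not be tested, and no p-value is printed.

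Values are log ratios of the ANIT pool over the olive oil pool. The direction was taken from the channel order in the labels and is likely rather than stated. If it ran the other way, every sign below would turn. The values were read as log2, although no source at hand states the base. A ratio holds no level, so neither the abundance of these transcripts nor the tissue label was checked, and fewer cells of a type cannot be told apart from less RNA per cell.

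Matrix metalloproteinases are zinc endopeptidases that cut collagens and other proteins of the extracellular matrix, and are made as inactive proenzymes. Mmp14 is anchored in the plasma membrane and cuts fibrillar collagen at the cell surface. It also activates proMmp2, for which it needs Timp2 as an adaptor that holds the proenzyme, and it activates proMmp13. In injured liver, matrix turnover is carried largely by stellate cells, portal fibroblasts and macrophages, and Timp1 is a known product of activated stellate cells.

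Upstream sequence was found in the RefSeq promoter table (rat assembly GRCr8) for Mmp12, Mmp13, Timp1 and Timp2. The 250 bases before the annotated start are shown for 3 of these genes. Mmp12 and Mmp13 were chosen because they are neighbours on the chromosome, with 0 protein-coding genes between them. Mmp12 feature b differed from Mmp13 by at most 0.18 on each array, whereas Mmp12 feature a minus Mmp13 was 0.74, -1.07, 0.52 and -0.75 on arrays 1 to 4, so the likeness rests on the feature that followed the dye. Timp1 is shown as the inhibitor to set beside them. The intervals are chr8:12866402-12866651 (plus strand) for Mmp12, chr8:12782579-12782828 (plus strand) for Mmp13 and chrX:3771123-3771372 (minus strand) for Timp1. Capitals mark matches to any of 5 motifs, each searched on both strands, with TGANTCA for AP-1, TATAAA for the TATA box, GGGCGG for the GC box, TTCNNNGAA for STAT factors and AGGAAG for ETS factors.
Mmp12: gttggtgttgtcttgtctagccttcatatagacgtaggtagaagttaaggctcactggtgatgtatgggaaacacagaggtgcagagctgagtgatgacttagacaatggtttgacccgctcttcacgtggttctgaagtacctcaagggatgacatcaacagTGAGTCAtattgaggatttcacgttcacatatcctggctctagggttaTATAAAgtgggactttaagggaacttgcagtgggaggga
Mmp13: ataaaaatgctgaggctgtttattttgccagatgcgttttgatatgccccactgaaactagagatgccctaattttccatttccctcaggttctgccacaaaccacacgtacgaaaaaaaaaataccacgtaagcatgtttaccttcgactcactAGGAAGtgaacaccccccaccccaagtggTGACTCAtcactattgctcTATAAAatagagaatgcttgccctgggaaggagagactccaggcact
Timp1: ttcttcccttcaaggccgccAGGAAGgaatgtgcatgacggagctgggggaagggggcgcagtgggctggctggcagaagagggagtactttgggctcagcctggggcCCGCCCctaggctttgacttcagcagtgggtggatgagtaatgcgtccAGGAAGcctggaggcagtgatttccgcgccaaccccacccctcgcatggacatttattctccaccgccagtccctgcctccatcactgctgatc

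The Mmp12 and Mmp13 windows each held 1 AP-1 match, TGAGTCA in Mmp12 from 87 to 81 bases before the start and TGACTCA in Mmp13 from 66 to 60 bases before it. Of all 33469 promoters in the table, 6.34% held an AP-1 match in a window of this length. Both windows also held TATAAA downstream of the AP-1 match, which 12.9% of promoters held, and Mmp13 held 1 ETS match (29.5% of promoters). The Timp1 window held 2 ETS matches and 1 GC box match (30.5% of promoters), while the Timp2 window held 1 GC box match and none of the other motifs. No STAT match lay in any of the 4 windows, against 7.67% of all promoters. The share of G and C bases was 45.6% in Mmp12, 44.4% in Mmp13, 61.2% in Timp1 and 72.0% in Timp2. The matches overlapped no other match. They describe the letters only, and a stretch close to a motif, such as tgagtaa in the Timp1 window, was not counted. No binding was measured here.

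Mmp14 was the member with the highest ratio and the only one above 0 on all 4 arrays. Its log2 ratio was 0.91 on array 1, 0.93 on array 2, 0.67 on array 3 and 0.92 on array 4. As deposited, the 4 values lay close together in both dye orientations, with array 3 below the others. The mean was 0.86 ± 0.13 (SD, n = 4 arrays), or 1.81-fold in the ANIT pool. Hybridisation noise was measured as the difference between arrays of like dye orientation, divided by 2. Such arrays share the dye orientation and both pools, so this noise holds neither a dye effect nor the spread between animals. For no feature of the table was this noise as large as the Mmp14 mean, and for Mmp14 itself it was 0.12 on the forward arrays and 0.00055 on the swapped arrays.

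Calls of higher or lower required a mean of at least 1 in size on the log2 scale (2-fold) and 1 sign throughout the 4 arrays. By this rule 3.82% of all features were called (0.775% higher and 3.05% lower), and 0 of the 7 metalloproteinase and inhibitor features. Mmp14 fell short of the limit with the values as deposited. With each array centred on its own median, the values were 1.59, 0.61, 1.31 and 0.58 on arrays 1 to 4. The swapped arrays were then each below the limit and the forward arrays above it, so that relative to the other features of an array Mmp14 did differ with the dye. The centred mean was 1.02 ± 0.51 (2.03-fold), past the limit, where 1.14% of all features were called higher and 2.48% lower. At a limit of 1.5-fold, which 2.48% of all features passed as higher and 6.92% as lower, Mmp14 was the 1 member called, as higher. Read as natural logarithms, the mean of Mmp14 would be 2.36-fold, which passes 2-fold as do 1.70% of all features in that direction.

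The place of a feature among all features of an array does not depend on centring. Mmp14 stood above 98.7% of features on array 1, 98.5% on array 2, 98.3% on array 3 and 97.9% on array 4, and its mean was the 21st highest of the table. With the ratio turned to olive oil over ANIT, Mmp14 would be the 21st lowest, at 0.551-fold, with 98.9% of features above it in the mean. The place of Mmp2, the gelatinase that Mmp14 activates, moved from above 6.82% of features on array 1 and 10.4% on array 3 to above 82.0% on array 2 and 70.4% on array 4. The place of Mmp14 lies near the upper end of this measure, where it can change little.

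**Figure D1:**
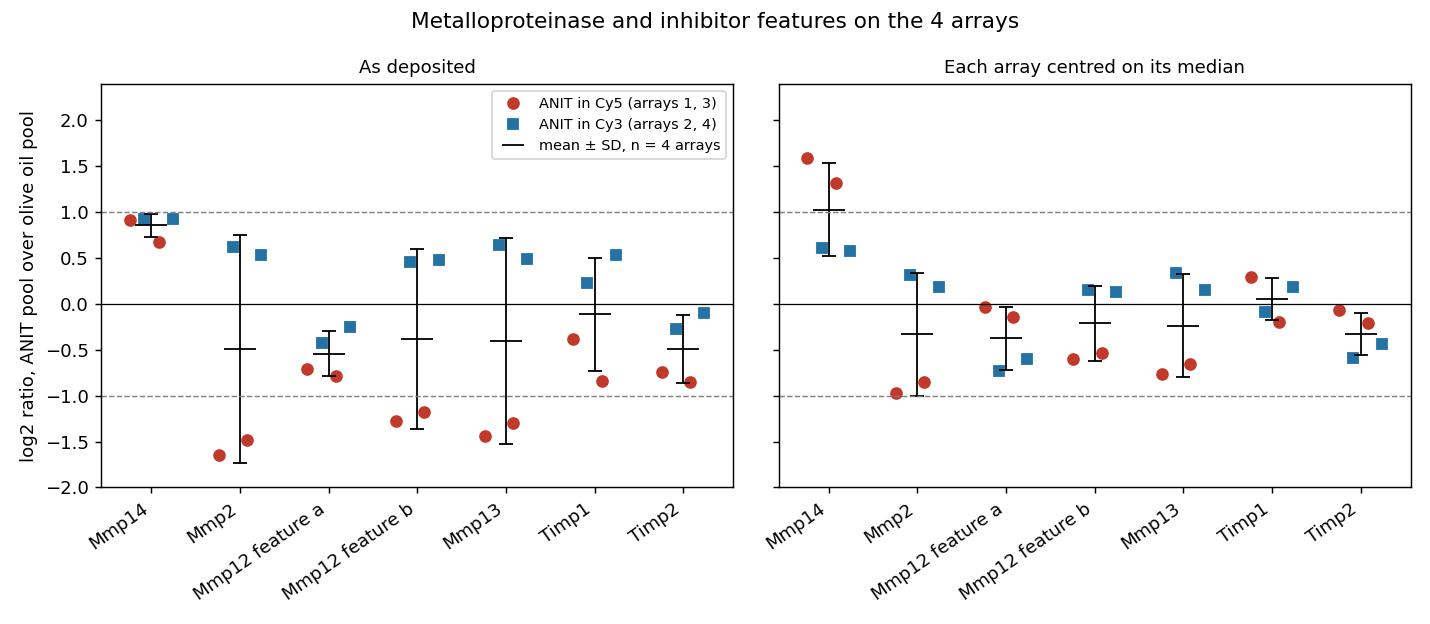
Log2 ratio (ANIT pool over olive oil pool, vertical axis) of each feature on the 4 arrays, as deposited (left) and with each array centred on its median (right); circles are the forward arrays (ANIT in Cy5), squares the swapped arrays (ANIT in Cy3), black bars the mean ± SD over 4 arrays, and dashed lines the 2-fold limit. Mmp14 lies between 0.67 and 0.93 on all arrays at left, while Mmp2, Mmp13 and Mmp12 feature b fall on opposite sides of 0 by dye.

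The secreted enzymes had means between -0.54 and -0.38, and most of them followed the dye. Mmp2 stood at -1.64 on array 1 and -1.49 on array 3, and at 0.62 on array 2 and 0.53 on array 4. Mmp13, a principal secreted collagenase of rodents, stood at -1.44, 0.65, -1.30 and 0.49 on arrays 1 to 4. Both genes were low on the forward and high on the swapped arrays, and the orientations did not overlap. On the forward arrays alone Mmp2, Mmp13 and Mmp12 feature b would be called lower, as would 34.5% of all features. The means were -0.49 ± 1.24 for Mmp2 and -0.40 ± 1.12 for Mmp13, each smaller than its SD, so neither direction is shown.

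The 2 features of Mmp12, the elastase of macrophages, did not give the same picture. Feature a stood at -0.70, -0.42, -0.78 and -0.25 on arrays 1 to 4, below 0 on all of them. Its mean was -0.54 ± 0.25, or 1.46-fold lower in the ANIT pool, the lowest of the members and short of both the 2-fold and the 1.5-fold limit. With centred arrays its values were -0.03, -0.74, -0.14 and -0.60, so on the forward arrays it lay near the array median. Feature b stood at -1.27, 0.46, -1.18 and 0.48, with the sign set by the dye orientation, and had a mean of -0.38 ± 0.98. Feature a minus feature b was 0.57 and 0.40 on the forward arrays and -0.88 and -0.73 on the swapped arrays. Averaged over both features, the gene stood at -0.46 ± 0.61 and was below 0 on 2 of 4 arrays.

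Timp1, which inhibits most secreted metalloproteinases but acts poorly on Mmp14, stood at -0.38, 0.23, -0.84 and 0.53 on arrays 1 to 4. Its values as deposited followed the dye, as the array medians did. Its mean of -0.11 ± 0.61 was the closest to 0 of the members. With centred arrays the values were 0.30, -0.09, -0.19 and 0.19, with no dye pattern left. The centred mean was 0.05 ± 0.23, so its sign depended on the scaling. Timp2, which inhibits Mmp14 and takes part in proMmp2 activation, stood at -0.74, -0.27, -0.86 and -0.09. It was below 0 on all 4 arrays, with a mean of -0.49 ± 0.37 (1.41-fold lower in the ANIT pool), and stayed below 0 on all of them when the arrays were centred (-0.33 ± 0.23). The centred values were -0.07, -0.59, -0.21 and -0.44, so Timp2 lay closer to the array median on the forward arrays. It stood above 47.4% of features on array 1 and 39.8% on array 3, but above 15.5% on array 2 and 20.7% on array 4. On the same array Timp1 was above Timp2 by 0.02 to 0.63, with a mean difference of 0.38 ± 0.26.

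The median over all features was -0.25, and array medians ran from -0.68 to -0.64 on the forward arrays and from 0.31 to 0.35 on the swapped arrays. Centring raised every mean by 0.17. Against that background, 4 of the 7 features (Mmp2, Mmp12 feature b, Mmp13 and Timp1) were below 0 on both forward arrays and above 0 on both swapped arrays, as were 53.8% of all features. The other 3 (Mmp14, Mmp12 feature a and Timp2) kept 1 sign throughout, as did 29.5% of all features. Mmp14 was above 0 throughout, as were 11.9% of all features, and Mmp12 feature a and Timp2 were below, as were 17.6%. These shares of members are not far from those of the whole table, which counts 485 features without a symbol. With centred arrays Mmp2, Mmp12 feature b and Mmp13 turned sign with the dye in this way, and Timp1 did not. The share of all features that did so after centring was not counted, so no trait of these members is read from it.

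How far each feature followed the dye was measured as the dye contrast, which is the mean of the forward arrays minus the mean of the swapped arrays, divided by 2. It was -0.07 for Mmp14, -0.20 for Mmp12 feature a, -0.31 for Timp2, -0.49 for Timp1, -0.85 for Mmp12 feature b, -0.97 for Mmp13 and -1.07 for Mmp2, against a median of -0.40 over all features. Mmp2, Mmp13 and Mmp12 feature b thus lay at the strongly shifted end. A contrast of -0.8 or below, a limit set after the values were seen, was met by 464 features (24.0%), of which 0 passed the 2-fold rule, which a sign that turns with the dye cannot pass. The mean ratios of these 464 features had a median of -0.39 and quartiles of -0.45 and -0.33, and the 3 members among them had means between -0.49 and -0.38. The other 1472 features had a median of -0.15.

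**Figure D2:**
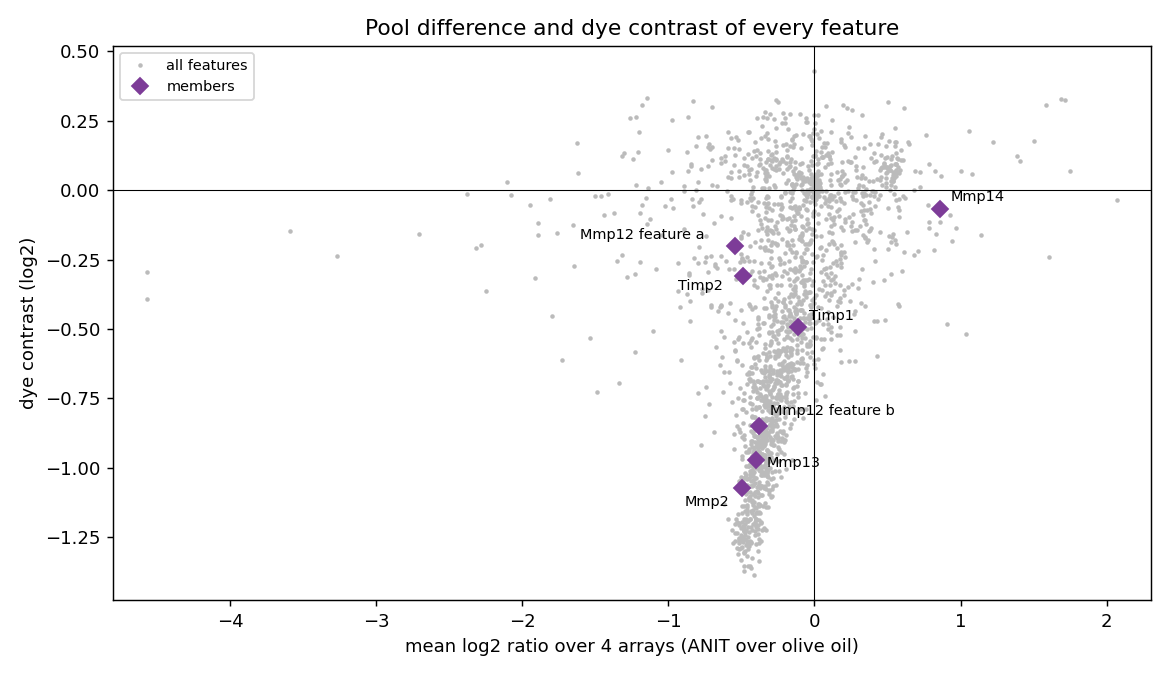
Mean log2 ratio over 4 arrays (horizontal axis) against dye contrast (vertical axis, log2) of all 1936 features (gray points), with the 7 members as diamonds. With values as deposited, Mmp14 stands at the right with a dye contrast of -0.07. Mmp2, Mmp13 and Mmp12 feature b lie in the dense strip of features with strongly negative contrast.

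Mmp14 was then set against each other member on the same array, a difference that centring leaves as it is. It was higher in all 24 differences (6 features on 4 arrays). The 6 differences of an array share the same Mmp14 value, so they are not independent. Mmp14 minus Mmp12 feature a was 1.62, 1.35, 1.45 and 1.18 on arrays 1 to 4, with a mean of 1.40 ± 0.18. Mmp14 minus Timp2 was 1.66, 1.20, 1.53 and 1.02, with a mean of 1.35 ± 0.29. For these 2 features each array gave a difference of more than 1 on the log2 scale, and the mean was several times its SD.

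Against the members whose values as deposited followed the dye, the size of the difference depended on the orientation. Mmp14 minus Mmp2 was 2.56 and 2.16 on the forward arrays, and 0.30 and 0.39 on the swapped arrays. The mean differences were 1.35 ± 1.17 for Mmp2, 1.26 ± 1.06 for Mmp13, 1.24 ± 0.91 for Mmp12 feature b and 0.97 ± 0.52 for Timp1, with the lowest single difference at 0.28 (Mmp13, array 2). Mmp14 minus the median of the other 6 features was 1.16 ± 0.76, between 0.44 and 1.92 on single arrays. Of all features in the table, 65 (3.36%, Mmp14 among them) lay above all 6 other members on every array.

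**Figure D3:**
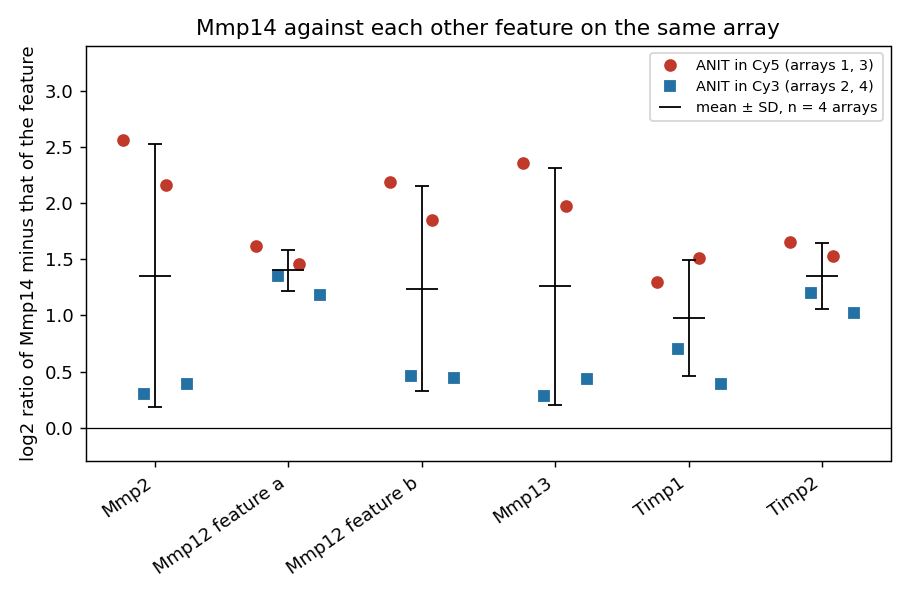
Log2 ratio of Mmp14 minus that of each other feature on the same array (vertical axis), with circles for the forward arrays (ANIT in Cy5), squares for the swapped arrays (ANIT in Cy3) and black bars for the mean ± SD over 4 arrays. All 24 points lie above 0, but the points of an array share the same Mmp14 value and are not independent. The differences from Mmp12 feature a and Timp2 change least between the dye orientations.

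The secreted enzymes that followed the dye had similar values. Mmp2 minus Mmp13 ranged from -0.20 to 0.04 over the arrays (mean -0.09 ± 0.12), and Mmp12 feature b minus Mmp13 from -0.18 to 0.17 (mean 0.02 ± 0.16). Mmp2 minus Mmp12 feature b was wider, at -0.37, 0.16, -0.31 and 0.05 on arrays 1 to 4 (mean -0.12 ± 0.26). Mmp12 feature a lay as close to Timp2, at a mean difference of -0.05 ± 0.12. No pair of these is separated beyond its SD. In the order of means, Mmp14 stands apart at the top and Timp1 follows. Timp1 differed from Mmp2, Mmp13 and Mmp12 feature b by less than the SD of the difference, so its place is not resolved from theirs. The other 5 features lie between -0.54 and -0.38 without a resolved order.

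The features most like Mmp14 over the 4 arrays, by Euclidean distance on the log2 scale among 1431 features of other named genes, were those of Por, Npm1 and Hnrnpa1. Por, the reductase that supplies electrons to cytochrome P450 enzymes, had a distance of 0.17 and a mean of 0.93 ± 0.12 on this feature, but its 5 features ranged from -0.35 to 0.93. Npm1, a nucleolar protein of ribosome assembly, had a distance of 0.17 and a mean of 0.78 ± 0.11. Hnrnpa1, an RNA-binding protein of splicing, had 0.18 and 0.78 ± 0.18 on this feature, and a mean of 0.60 on its other feature. In all, 18 features lay within 0.5 of Mmp14. For Mmp12 feature a, the lowest member, the nearest were Ppp5c, a protein phosphatase (0.13, with a mean of -0.50 on this feature and -0.02 on its other feature), the cytokine Tnf (0.13) and Blvra, which reduces biliverdin to bilirubin (0.16), and 68 features lay within 0.5. The points of each pattern share the same 4 arrays.

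Other genes of matrix turnover were grouped in 4 lists, with features of 1 gene averaged. By gene mean 0.626% of the 958 named genes were called higher and 3.55% lower, and the median was -0.24. None of the 10 matrix components was called in either direction, and their median was -0.25. Fibronectin (Fn1) was the highest at 0.38 ± 0.14, with all arrays between 0.26 and 0.55, followed by Lamb2, a laminin chain of basement membranes, at 0.24 ± 0.34. The lowest were Col1a1, a chain of collagen I, which is cut by both Mmp13 and Mmp14, at -0.44 ± 0.72, and the plasma and matrix protein vitronectin (Vtn) at -0.41 ± 0.07. Col1a1 followed the dye (-1.07 on the forward and 0.18 on the swapped arrays), while Vtn lay between -0.48 and -0.34 on all arrays.

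Of 13 other proteases, activators and inhibitors, none was called either, and the median was -0.10. Ctsl, a cathepsin, stood at 0.35 ± 0.16 by gene mean, but its 2 features disagreed, at 0.78 ± 0.31 and -0.08 ± 0.11. The serine protease inhibitor Serpina3n stood at 0.30 ± 0.16, with feature means of 0.25 and 0.34. The lowest were Plat, the tissue plasminogen activator, at -0.40 ± 1.02, and Tfpi, an inhibitor of the tissue factor pathway, at -0.39 ± 1.08, both with signs that followed the dye. None of the 7 matrix receptors and proteins linked to them was called (median -0.22). Ilk, a protein at integrin tails, was the highest at 0.38 ± 0.13, followed by the collagen receptor Ddr1 at -0.10 ± 0.62. The lowest were Itgb1 at -0.36 ± 1.28 and Itgb5 at -0.32 ± 0.27.

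The list of cytokines, receptors and factors that act on metalloproteinase transcription held 16 genes, with none called and a median of -0.12. Stat3 stood at 0.93 ± 0.09 by gene mean, and 1 of its 2 features, at 1.00, passed the rule on its own. Il1r1, the interleukin 1 receptor, stood at 0.52 ± 0.07. The lowest were Fosl2, a subunit of AP-1, at -0.51 ± 0.67 (its features at -0.74 ± 0.24 and -0.27 ± 1.13), and Tnf, a cytokine inducer of metalloproteinases, at -0.50 ± 0.29, with all arrays of Tnf between -0.79 and -0.19. Fos, named after its value was seen because its protein binds the AP-1 site, stood at -0.07 ± 0.53. Among the 4 lists only Stat3 lay above Mmp14 in gene mean. The medians of all 4 lists were below 0 on the forward and above 0 on the swapped arrays, and those of the protease and regulator lists turned positive with centred arrays (0.06 and 0.05).

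**Figure D4:**
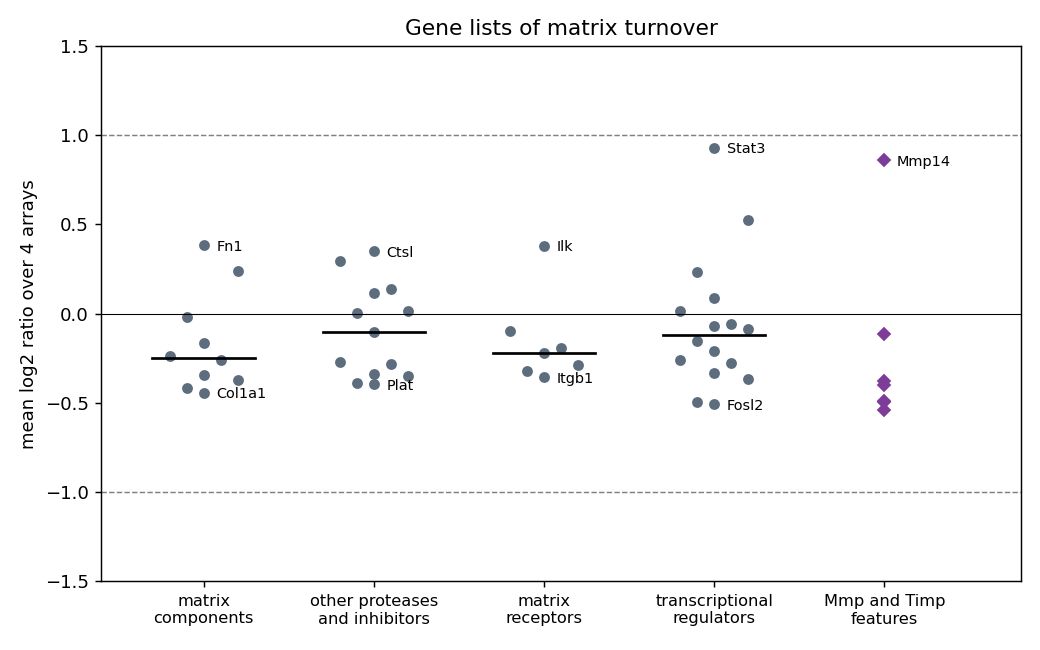
Mean log2 ratio over 4 arrays (vertical axis) of each gene in 4 lists of matrix turnover (circles, with the median as a bar) and of the 7 metalloproteinase and inhibitor features (diamonds); the highest and lowest gene of each list are named and dashed lines mark 2-fold. Mmp14 at 0.86 lies above every listed gene except Stat3 at 0.93.

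Markers of the cell types that make these enzymes were few on the array. Of 14 stellate cell or fibroblast markers 3 were measured, Col1a1, Ngfr at -0.35 ± 0.75 and Vim, an intermediate filament protein of mesenchymal cells, at 0.13 ± 0.07. None of 8 macrophage markers was measured, 1 of 11 neutrophil markers (S100a9, -0.13 ± 0.89, with feature means of -0.37 and 0.11), and 3 of 10 endothelial markers (Kdr -0.44 ± 0.48, Cdh5 -0.33 ± 0.89 and Tek -0.22 ± 1.01). S100a9, Cdh5 and Tek turned sign with the dye, so no direction is shown for them. They stood at -0.90, -1.08 and -1.10 on the forward arrays and at 0.64, 0.41 and 0.65 on the swapped arrays. Of 11 cholangiocyte markers 3 were measured. Spp1 (-0.37 ± 1.15) and Ggt1 (-0.31 ± 1.11) turned sign with the dye, from -1.36 and -1.27 on the forward arrays to 0.62 and 0.64 on the swapped arrays, so no direction is shown for them, and Aqp1 stood at -0.13 ± 0.10. The only measured one of 10 lymphocyte or natural killer cell markers was Il2rb, at -0.84 ± 0.12. The 5 measured of 10 hepatocyte markers lay between -0.58 (Pck1) and 0.07 (Apoa1). No measured marker of any of these types had a gene mean as high as Mmp14, and the part of cell composition in the Mmp14 ratio was not tested. Col1a1 and Spp1 also stand in the matrix list, and Serpina1 in the protease list.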

How the data were processed

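Per the labels, liver RNA of 3 rats per condition was mixed, and poly(A) RNA of each mixture was reverse transcribed with Cy3 or Cy5 for spotted cDNA arrays. The authors deposited 1 log ratio per feature and array, taken here to be log2. The log base, the direction of the ratio, the scanner, the background correction and the normalization were not stated in these sources, and no spot intensities were at hand. The number of arrays (4) limits the precision. Values were used without further centring, and no array's sign was turned. The platform annotation gave 1 symbol for 1432 features, several for 19 and none for 485, and only the first kind was named. Shares of all features, places among features and array medians count the features without a symbol too. Some of these recur in the table in groups of similar values, and whether they are control spots was not checked.

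The mean, SD and 2-fold rule were applied to all features. Named genes were all members, the 2 highest and 2 lowest genes of each list with any called gene, and the 3 features nearest to Mmp14 and to the lowest member. Members and lists were chosen with earlier results of these data known. Alternatives were centred arrays, forward or swapped arrays alone, leaving out each array, a 1.5-fold limit, natural logarithms, and gene means or single features. Python 3.11.15 was used with pandas 2.3.3, numpy 2.4.6 and matplotlib 3.10.9.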

Additional observations from a re-analysis of the deposited data

Results flagged for a closer look

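The Mmp14 value of array 3, 0.67, lay apart from those of the other arrays, which were 0.91 to 0.93. Its gap made up 0.953 of the whole range of the 4 values, above Dixon's critical value for 4 values. Of 12 results checked in this way 1 was above that value. Chance alone marks about 1 group in 20, but only for independent groups of values from 1 distribution. Several of these results split by dye orientation, which leaves a small gap (0.069 of the range for Mmp2 and 0.073 for Mmp13). The count is therefore not read against that rate. Without array 3 the mean of Mmp14 over the dye orientations was 0.92.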

How the results depend on the processing

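A feature's mean in 1 dye orientation lies within the SD of the 4 arrays by construction, so that comparison says nothing of stability. On the forward and the swapped arrays alone the means were -1.57 and 0.58 for Mmp2, -1.37 and 0.57 for Mmp13, -1.23 and 0.47 for Mmp12 feature b and -0.61 and 0.38 for Timp1, all with a change of sign. Centred arrays gave 1.02 for Mmp14, and 1 member was called higher with centred arrays, with the 1.5-fold limit and with natural logarithms. With the forward arrays alone (ANIT in Cy5) 3 members were called lower (Mmp2, Mmp13 and Mmp12 feature b), as were 667 features in all (34.5%). Of all features, 48 were called higher and 134 lower at 1.5-fold, and 33 and 113 with natural logarithms, against 15 and 59. With the forward arrays alone 2 of 10 matrix components and 4 of 13 proteases or inhibitors were called. So were 1 of 7 receptors and 3 of 16 regulators. All these calls were lower. Stat3 was the 1 regulator called, as higher, with centred arrays, at 1.5-fold, with natural logarithms and with features on their own. The shares of all named genes called with forward arrays alone, centred arrays, 1.5-fold or natural logarithms were not counted. These counts therefore show nothing particular to the lists. With the swapped arrays alone (ANIT in Cy3) the medians were 0.40 for proteases and 0.41 for receptors. The cause was not tested for any of these beyond the change of limit or arrays itself. With each array left out, Mmp14 lay between 0.80 and 0.92, and its difference from the median of the other members between 1.10 and 1.22. Spot intensities were not at hand, so the signal over background that limits each ratio is unknown.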
